A study of Mus musculus with 12 samples.

Results

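A set of 46 genes that drive or mark the cell division cycle was followed in mouse embryonic stem cells (ESCs) in which the level of the Yes-associated protein YAP had been lowered or raised. They were chosen by name and matched to the gene symbols of the expression tables, where all 46 names were found among 24480 genes. By phase they comprised 20 regulators of the passage from G1 into S phase (cyclins D and E, their kinases and inhibitors, E2F factors, pocket proteins, Cdc25a and the Myc factors), 12 genes of replication licensing and DNA synthesis, and 14 genes of G2 and mitosis. The comparison asks whether the level of YAP moves the expression of the proliferation program in these cells.

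The cells were of the E14Tg2a line, a mouse ESC line grown without feeder cells in the presence of leukemia inhibitory factor, and every group was transfected transiently with a lipid reagent. According to the study, the knockdown was profiled at the point after siRNA transfection when YAP was lowest. CTR KD cells received scrambled siRNAs and YAP KD cells a mixture of siRNAs against mouse YAP. YAP OE cells received a plasmid in which the CAG promoter, which is active in most cell types, drives mouse YAP. CTR OE cells received a control plasmid that encodes GFP according to the labels and is an empty vector according to the study's text. Each of the 4 groups had 3 libraries of total RNA, described as independent experiments. All cells came from 1 line, and in transiently transfected bulk cultures a change in a fraction of the cells and a smaller change in every cell cannot be told apart, nor can fewer cells of a type and less RNA per cell.

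Each library held between 4.29e+07 and 5.72e+07 expected counts. Yap1 (chr9:7931999-8004638, GRCm38) was at 116, 134 and 124 CPM (counts in 1000000 of the library) in CTR KD and at 58.2, 54.8 and 56.5 CPM in YAP KD, and at 134, 131 and 134 CPM in CTR OE against 278, 257 and 245 CPM in YAP OE. All 8 ESC markers reached at least 1 TPM (transcripts in 1000000, from counts per length) in every group, whereas none of the fibroblast, trophoblast, primitive endoderm or mesoderm markers did, with summed levels of 0.21 to 0.94 TPM per list. Within that low range the 5 trophoblast markers summed to 0.67 to 0.94 TPM in YAP OE against 0.3 to 0.45 TPM in CTR OE, and the 6 fibroblast markers to 0.59 to 0.67 TPM in YAP KD against 0.48 to 0.54 TPM in CTR KD, without overlap in either case. No marker of these lists was at 0 in all libraries of a group, and their part in the results was not tested. Of 4 neural markers, which summed to 4.17 to 6.13 TPM, 2 reached that level.

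In the textbook scheme, D-type cyclins with Cdk4 or Cdk6 and E-type cyclins with Cdk2 phosphorylate Rb1 and its relatives, which releases E2F factors to transcribe the genes of S phase. Licensing loads the MCM helicase onto origins through Cdc6 and Cdt1, with geminin (Gmnn) as the inhibitor of reloading, and the cyclin B and Cdk1 kinase later starts mitosis. ESCs are known for a short G1 phase and for abundant cyclin E activity, and YAP is known as a co-activator that works through TEAD factors and promotes growth in many tissues.

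Promoter sequences show the kinds of elements through which these phases are known to be read. RefSeq start-site windows (GRCm38.p6) were at hand for 35 of the 46 genes and for 27025 genes in all, and the 250 bases upstream of the start were searched on both strands. The CCAAT box (CCAAT), bound by NF-Y, was in 10 of 10 G2/M windows, 8 of 10 replication windows and 5 of 15 G1/S windows, against 34.5% of all windows. The cell cycle homology region (TTTGAA), a short element common in mitotic promoters, was in 5 of 10 G2/M windows and in 25.7% of the members' windows, against 16.3% of all. Either of the E2F sequences TTTGGCGC and TTTCGCGC was in 6 of the 35 windows (17.1% against 0.681% of all), namely those of Cdc25a, Mycn, Rbl1, Mcm5, Mcm6 and Cdk1. Neither E2F sequence holds the letters of another searched motif, but the pair can share bases on opposite strands, and a window holding both (Mcm5, Mcm6 and Mycn) was counted once.

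The core of the TEAD site (CATTCC), the element through which YAP is recruited, was in 2 of 35 windows, those of Mcm3 and Rbl1 (5.71% against 12.6% of all), and the E-box CACGTG, the site read by Myc factors, was in those of Cdk4 and Cdk6 (5.71% against 6.04%). These matches describe letters in the window and not bound sites. The windows of 4 genes are printed 5′ to 3′ on the strand of the gene, with matched motifs in capitals (a CCAAT box on the other strand reads ATTGG and the homology region TTCAAA). Cdk6 and E2f2 are the members past the test whose windows were given. Pcna and Top2a are the replication and the G2/M gene of highest mean TPM among those with a window. The Cdk6 window, chr5:3343643-3343892 on the plus strand, precedes a start inside the annotated span of the gene and holds the E-box. The E2f2 window is chr4:136172024-136172273 on the plus strand, the Pcna window chr2:132253181-132253430 on the minus strand and the Top2a window chr11:99024190-99024439 on the minus strand.
Cdk6: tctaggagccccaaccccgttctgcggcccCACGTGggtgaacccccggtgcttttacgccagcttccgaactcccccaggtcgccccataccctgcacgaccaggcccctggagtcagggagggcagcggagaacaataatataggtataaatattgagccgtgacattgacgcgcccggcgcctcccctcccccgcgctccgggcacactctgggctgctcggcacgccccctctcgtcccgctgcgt
E2f2: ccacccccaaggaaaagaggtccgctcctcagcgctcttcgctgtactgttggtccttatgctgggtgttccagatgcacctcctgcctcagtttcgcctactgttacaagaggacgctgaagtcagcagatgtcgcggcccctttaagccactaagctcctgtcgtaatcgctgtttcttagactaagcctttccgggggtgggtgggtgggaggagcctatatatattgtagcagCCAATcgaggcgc
Pcna: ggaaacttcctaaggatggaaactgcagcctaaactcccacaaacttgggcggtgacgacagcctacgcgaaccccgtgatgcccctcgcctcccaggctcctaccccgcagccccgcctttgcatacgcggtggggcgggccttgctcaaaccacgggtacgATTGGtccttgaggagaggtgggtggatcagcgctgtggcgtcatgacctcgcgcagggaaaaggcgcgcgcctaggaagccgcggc
Top2a: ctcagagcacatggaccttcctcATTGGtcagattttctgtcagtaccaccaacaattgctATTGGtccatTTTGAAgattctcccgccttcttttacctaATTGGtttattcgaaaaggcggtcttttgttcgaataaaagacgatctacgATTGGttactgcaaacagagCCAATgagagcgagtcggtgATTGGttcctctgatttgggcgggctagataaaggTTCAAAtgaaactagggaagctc

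Levels were compared between genes only per length, in TPM. Replication genes were the most abundant class, with a median over genes of 63.9 TPM, followed by the G2/M genes at 28.9 TPM and the G1/S regulators at 4.4 TPM. Cdk4 was at 188 ± 11.5 TPM (SD over all 12 libraries), Pcna, the sliding clamp of DNA polymerase, at 147 ± 11 TPM and Top2a, the topoisomerase that untangles replicated chromosomes, at 129 ± 12.1 TPM. The spreads of Pcna and Top2a overlapped. At the other end stood Ccnd2 at 0.366 ± 0.107 TPM and the inhibitor Cdkn2c at 0.291 ± 0.0672 TPM, whose ranges also overlapped.

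In 3 families 1 member carried nearly all of the message per length. Cdk4 made up 98.8% of the TPM of the Cdk4 and Cdk6 pair, Ccne1 94.6% of the E-type cyclins and Mycn 91.8% of the Myc factors. Ccnd3 (63%) and Ccnd1 (36.2%) together accounted for nearly all D-type cyclin message, with Ccnd2 at 0.818%. The shares were more even among the E2F factors (E2f1 49.5%, E2f3 38.8%, E2f2 11.7%), the pocket proteins (Rbl1 45.2%, Rb1 37.3%, Rbl2 17.6%) and the MCM subunits, which lay between 9.07% for Mcm4 and 20.3% for Mcm7. Between 56.5% and 62.8% of the TPM of a library belonged to small RNA entries, so a TPM depends on their amount, which the shares within families do not.

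**Figure D1:**
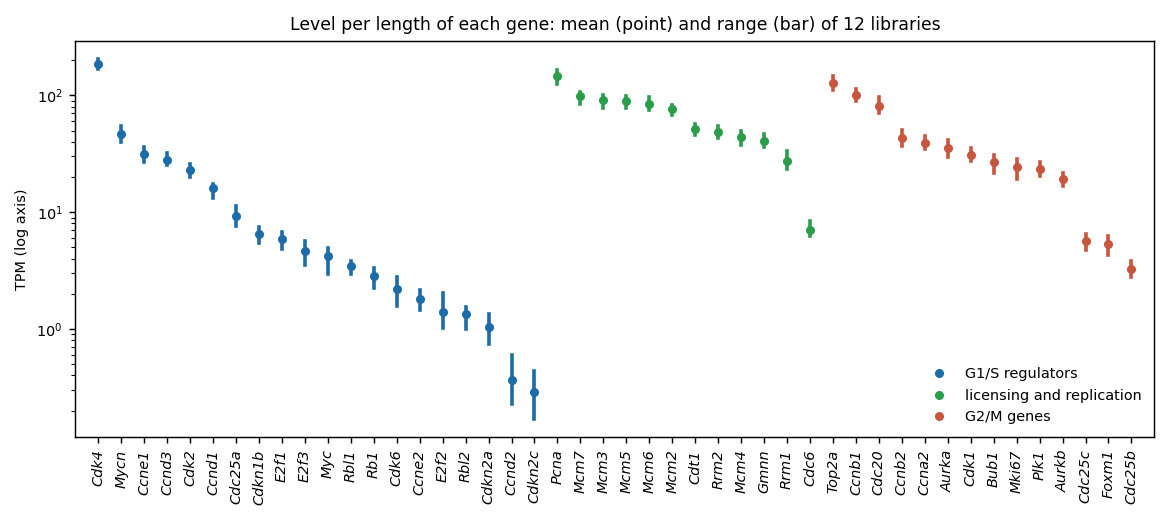
Mean level (point) and range (bar) of each gene over 12 libraries in TPM, on a log axis, ordered within the 3 phases. The replication genes lie between 7.08 and 147 TPM, while the G1/S regulators spread from 0.291 to 188 TPM.

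When YAP was lowered, 4 of the 46 genes changed, all of them G1/S regulators. Ccnd2 and E2f2 rose and Cdk6 and Rb1 fell, with no gene of the replication or G2/M class past the test. The test was edgeR's quasi-likelihood F test (two-sided) on 14606 genes, with Benjamini-Hochberg adjusted p under 0.05. Over all genes tested it called 5.49%, with 2.71% higher and 2.78% lower in YAP KD, and over genes at 10 CPM or more it called 6.20%, against 3 of the 42 members at that level. An unadjusted p under 0.05 was found for 10 of the 46. All 46 members passed the filter on low counts.

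Ccnd2 (chr6:127125162-127152188) encodes cyclin D2, the least abundant of the D-type cyclins in these cells. It was at 3.42, 3.60 and 3.74 CPM in CTR KD and at 5.24, 5.97 and 5.78 CPM in YAP KD, so that every YAP KD library lay above every control. The mean rose from 3.59 ± 0.161 to 5.66 ± 0.377 CPM (SD, n = 3), 1.58-fold, with a log2 fold change of 0.66 (SE 0.0877, 95% interval 0.46 to 0.86, edgeR adjusted p = 0.00304). Its share of D-type cyclin TPM was 0.737% ± 0.0317 in CTR KD and 1.17% ± 0.126 in YAP KD. Ccnd1 and Ccnd3, which hold the remainder, moved by -0.09 (SE 0.044) and 0.04 (SE 0.0485) on the log2 scale, at edgeR adjusted p = 0.301 and 0.698.

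E2f2 (chr4:136172274-136196057), one of the activating E2F factors, was at 11.5, 11.8 and 10.6 CPM in CTR KD and at 14.0, 15.5 and 16.1 CPM in YAP KD. The groups did not overlap. The mean went from 11.3 ± 0.646 to 15.2 ± 1.06 CPM, 1.34-fold (log2 fold change 0.43, SE 0.0706, edgeR adjusted p = 0.0085). As a share of the TPM of E2f1, E2f2 and E2f3, it was 10.8% ± 0.357 in CTR KD and 13.6% ± 0.722 in YAP KD. Its fellow activators did not pass the test, with E2f3 at 0.13 (SE 0.0448, edgeR adjusted p = 0.13) and E2f1 at a log2 fold change of 0.00 (SE 0.0524).

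Cdk6 (chr5:3341004-3531008) encodes the less abundant of the kinases that partner D-type cyclins. It was at 46.9, 47.4 and 48.0 CPM in CTR KD and at 39.4, 40.2 and 40.9 CPM in YAP KD, all lower than the controls. The fold was 0.847 (log2 fold change -0.24, SE 0.0396, 95% interval -0.33 to -0.15, edgeR adjusted p = 0.00843). The edgeR adjusted p was 0.0506 when CTR KD replicate 3 was dropped and 0.0513 when YAP KD replicate 2 was. Cdk4 and Cdk2 gave 0.07 each on the log2 scale (edgeR adjusted p = 0.411 and 0.335). As with Ccnd2, the member that moved was a minor one of its family, since Cdk6 held 1.18% ± 0.0329 of the pair's TPM in CTR KD and 0.951% ± 0.0598 in YAP KD.

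Rb1 (chr14:73192858-73325951), the retinoblastoma protein that holds E2F factors in check, was at 24.6, 24.4 and 25.1 CPM in CTR KD and at 22.4, 21.5 and 21.6 CPM in YAP KD. The groups did not overlap, and the log2 fold change was -0.18 (SE 0.0454, 95% interval -0.28 to -0.08) with an edgeR adjusted p of 0.0497, just inside the threshold. The call was lost when any 1 of 5 libraries was left out, the edgeR adjusted p then being 0.0854 (CTR KD replicate 1 left out), 0.168 (CTR KD replicate 3), 0.0961 (YAP KD replicate 1), 0.19 (YAP KD replicate 2) and 0.167 (YAP KD replicate 3). DESeq2 and limma-voom gave adjusted p = 0.118 and 0.0537 with all libraries. The related pocket proteins Rbl1 (-0.10, SE 0.0441) and Rbl2 (-0.16, SE 0.0814) did not pass edgeR's test (adjusted p = 0.259 and 0.319). Reads of Rbl2, like those of Ccnd3, Ccne2 and Ccna2, were divided in part between genes in 11 or 12 of the libraries, as their expected counts were not whole.

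**Figure D2:**
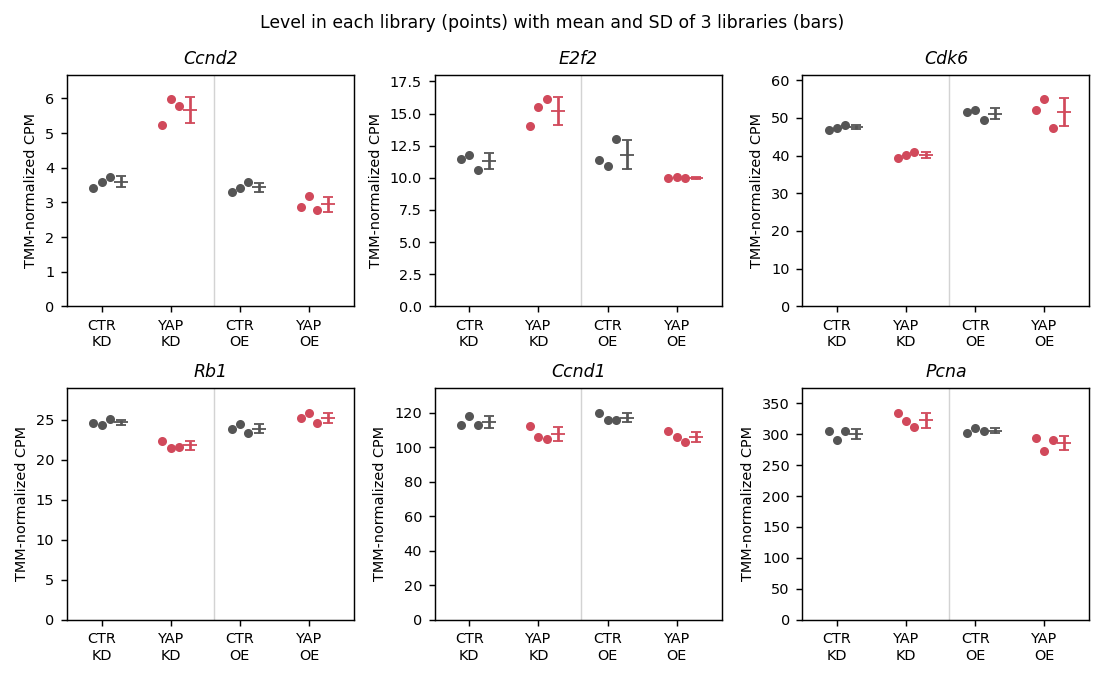
Level of 6 genes in TMM-normalized CPM (vertical axis, from 0) in each library of the 4 groups, with the mean and SD of 3 libraries drawn beside the points. Ccnd2 and E2f2 are higher and Cdk6 and Rb1 lower in YAP KD than in CTR KD with no overlap. Ccnd1 lies below its controls in both YAP KD and YAP OE without passing the test.

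The remaining G1/S regulators did not pass the test in YAP KD. Ccne1, the cyclin E that dominates in these cells, was at 102, 104 and 101 CPM in CTR KD and 108, 109 and 110 CPM after knockdown, which is 0.09 higher on the log2 scale without overlap (SE 0.0373, edgeR adjusted p = 0.196). The inhibitors Cdkn1b, Cdkn2a and Cdkn2c gave -0.04, 0.24 and 0.22 on the log2 scale, the latter pair with SEs of 0.169 and 0.207 at levels near 1 CPM. At such levels a change of this size was not detectable. Mycn, at 202, 240 and 215 CPM in CTR KD and 215, 199 and 210 CPM in YAP KD, overlapped between the groups, as did Myc and Cdc25a, the phosphatase that activates Cdk2.

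None of the 12 replication genes passed the test in YAP KD, and the 95% interval of each lay within 0.25 on the log2 scale. The MCM subunits, which form the replicative helicase, had log2 fold changes from -0.10 (Mcm5) to 0.08 (Mcm6), 4 of them negative and 2 positive. Rrm1, the large subunit of the ribonucleotide reductase that supplies deoxynucleotides, came closest to a call. It was at 197, 195 and 193 CPM in CTR KD and 216, 213 and 218 CPM in YAP KD, every treated library above every control, and the log2 difference was 0.14 with an edgeR adjusted p of 0.0577 (SE 0.0367, 95% interval 0.06 to 0.22). With limma-voom its adjusted p was 0.0487, and in 1 edgeR fit over all 12 libraries 0.0239. Pcna and Gmnn gave 0.10 and 0.11 (edgeR adjusted p = 0.236 and 0.175).

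None of the 14 G2/M genes passed it either. Their log2 fold changes ran from -0.01 for Ccnb2 to 0.14 for Mki67, the proliferation marker Ki-67, with edgeR adjusted p of 0.222 or more, and 13 of the 14 intervals lay within 0.25. Cdk1, the mitotic kinase, was at 152, 155 and 153 CPM in CTR KD and 164, 161 and 163 CPM in YAP KD, which did not overlap (log2 fold change 0.09, SE 0.0367, edgeR adjusted p = 0.222). Mki67 was at 469, 384 and 445 CPM in CTR KD and 451, 493 and 485 CPM in YAP KD, where 1 control lay far under the rest. That control, CTR KD replicate 2, was where the members, like genes in general, deviated most from the other libraries of their group. Without it the median log2 fold change of the 46 members was 0.061 in place of 0.046. The median was 0.018 without CTR KD replicate 1 and 0.028 without YAP KD replicate 1.

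Seen by sign alone, 30 of the 46 genes were higher and 16 lower in YAP KD, with a median log2 fold change of 0.046 against 0.0058 over all genes tested. The median size was 0.075 for the 46 members, which lay between 0.085 over all genes tested and 0.059 over all genes at 10 CPM or more. In YAP KD 16 members lay above their controls without overlap and 4 below, while 25.9% of all genes tested were free of overlap in either direction. By class the medians were 0.025 for G1/S, 0.045 for replication and 0.054 for G2/M genes, each above 0 under 4 other scalings too. Without YAP KD replicate 1 the G1/S median was -0.0083 (9 above and 11 below 0) and the replication median 0.0242. Without CTR KD replicate 1 the medians were 0.0133, 0.0279 and 0.0342 for the 3 classes in that order, and without CTR KD replicate 2 the replication median was 0.0811. The summed level of the 14 G2/M genes, to which Top2a contributes most, was 3337, 3170 and 3287 CPM in CTR KD and 3430, 3485 and 3405 CPM in YAP KD. The sums of the other classes overlapped between these groups. For replication genes they were 3607.2 to 3780.3 CPM in CTR KD and 3594.5 to 3846.9 CPM in YAP KD. For G1/S regulators they were 1329.7 to 1394.4 CPM in CTR KD and 1347 to 1400.4 CPM in YAP KD.

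**Figure D3:**
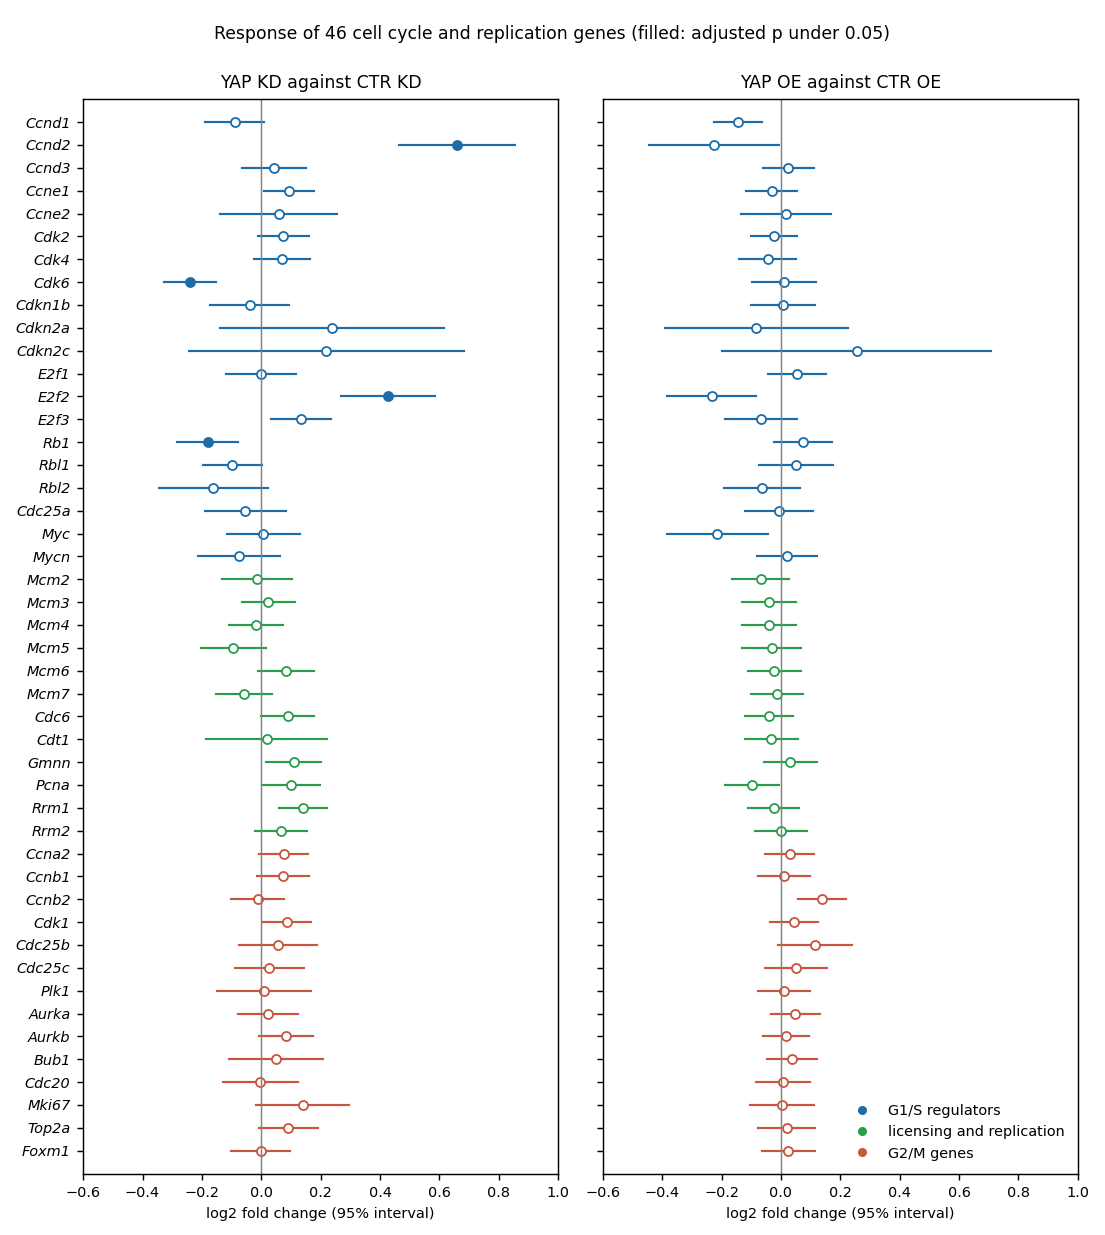
Log2 fold change (horizontal axis) with its 95% interval for each of the 46 genes in YAP KD against CTR KD (left) and YAP OE against CTR OE (right), coloured by phase, with filled points for an adjusted p under 0.05. Only Ccnd2, E2f2, Cdk6 and Rb1 are filled in the left panel and none in the right.

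When YAP was raised, none of the 46 genes passed edgeR's test, the lowest adjusted p being 0.0728. An unadjusted p under 0.05 was found for 6 (Ccnd1, Ccnd2, E2f2, Myc, Pcna and Ccnb2). DESeq2 and edgeR's exact test each called 1, Ccnd1, and limma-voom 0. Over the 14804 genes tested 2.13% were called, 1.66% higher and 0.473% lower, and 2.35% of those at 10 CPM or more. For 41 of the 46 the 95% interval lay within 0.25 on the log2 scale, the exceptions being Ccnd2, Cdkn2a, Cdkn2c, E2f2 and Myc. In all, 3 members lay above and 4 below their controls without overlap, against 18.1% of all genes in either direction.

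Ccnd1 (chr7:144929931-144939831), cyclin D1, was at 120, 116 and 116 CPM in CTR OE and at 109, 106 and 103 CPM in YAP OE, all 3 under the controls. Its log2 fold change was -0.14 (SE 0.0383, 95% interval -0.23 to -0.06, edgeR adjusted p = 0.0728), and DESeq2 gave an adjusted p of 0.0393. Ccnd1 was also below its controls in YAP KD, narrowly, at 112.1, 106 and 104.4 against 112.5, 118.2 and 112.5 CPM. The responses in the 2 experiments differed by 0.05 (SE 0.0562, edgeR adjusted p = 0.65). E2f2 was at 11.4, 10.9 and 13.0 CPM in CTR OE and 9.96, 10.1 and 10 CPM in YAP OE, again without overlap (-0.23, SE 0.0706, edgeR adjusted p = 0.123). Ccnd2, at 3.31, 3.41 and 3.58 against 2.86, 3.19 and 2.79 CPM, was likewise below its controls in each YAP OE library (-0.23, SE 0.103, edgeR adjusted p = 0.362).

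Myc was at 19.7, 19.7 and 18.8 CPM in CTR OE and at 18.9, 17.1 and 14.2 CPM in YAP OE. The groups overlapped and the treated libraries were spread widely, and the log2 difference of -0.21 (SE 0.0792, edgeR adjusted p = 0.228) became -0.31 (edgeR adjusted p = 0.0375) without YAP OE replicate 1. Ccnb2, the less abundant of the B-type cyclins, was the member nearest to a call on the higher side, at 112, 110 and 108 CPM in CTR OE and 118, 121 and 124 CPM in YAP OE (0.14, SE 0.038, edgeR adjusted p = 0.087). Its groups did not overlap. Ccnb1, which held 70% of the TPM of the pair, gave 0.01 (SE 0.0416).

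The classes differed in sign in YAP OE, at sizes that no single gene carried past the test. All 14 G2/M genes had log2 fold changes above 0, from 0.0031 (Mki67) to 0.14 (Ccnb2), with a median of 0.027, and the count was 14 under each of 4 other scalings. The 39 other mitotic genes of a longer list were nearly balanced, 22 above and 17 below 0 with a median of 0.0071. The count of G2/M members above 0 was 11 of 14 without CTR OE replicate 2, CTR OE replicate 3, YAP OE replicate 1 or YAP OE replicate 3, and 13 without YAP OE replicate 2. Of the 12 replication genes 11 were below 0, from -0.10 (Pcna) to 0.03 (Gmnn, the only one above 0), with a median of -0.032, and 10 were below 0 with upper-quartile factors or total counts as the scaling. That median was -0.0107 without CTR OE replicate 1, -0.013 without YAP OE replicate 2 and -0.0528 without CTR OE replicate 2. Of the 46 replication fork genes on the longer list, 14 were above and 32 below 0, with a median of -0.022. Genes of 1 class share the same libraries and are not independent of each other, and the median of all genes was -0.0025. The G1/S regulators were divided, 9 above and 11 below 0. The median size over the 46 genes was 0.035, against 0.064 for all genes tested and 0.042 for all genes at 10 CPM or more.

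Whether a gene responded differently to less and to more YAP was tested in 1 edgeR fit over the 12 libraries, as the YAP KD response minus the YAP OE response. Of the 46 members, 5 passed (8.80% of 15049 genes did). The difference was 0.88 for Ccnd2 (SE 0.123, edgeR adjusted p = 0.000342) and 0.66 for E2f2 (SE 0.102, adjusted p = 0.000762), both higher in YAP KD and, without passing the test, lower in YAP OE. For Rb1 it was -0.26 (SE 0.0585, adjusted p = 0.0122), as Rb1 was at 23.9, 24.5 and 23.4 CPM in CTR OE and 25.2, 25.9 and 24.6 CPM in YAP OE (0.07, SE 0.0457). These calls held whichever of the 12 libraries was left out.

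Cdk6 differed by -0.25 (SE 0.0674, edgeR adjusted p = 0.0286) while its log2 fold change in YAP OE was 0.01 (SE 0.0502, 95% interval -0.10 to 0.12). Its call was lost without CTR KD replicate 3 (edgeR adjusted p = 0.0687), YAP KD replicate 1 (0.066), YAP KD replicate 2 (0.06), CTR OE replicate 1 (0.061), CTR OE replicate 3 (0.0912), YAP OE replicate 1 (0.0618) or YAP OE replicate 2 (0.0711). Pcna was at 306, 291 and 305 CPM in CTR KD against 335, 321 and 311 CPM in YAP KD, and at 302, 309 and 306 CPM in CTR OE against 294, 272 and 290 CPM in YAP OE. Both comparisons were free of overlap in opposite directions, and the difference was 0.20 (SE 0.0584) at an edgeR adjusted p of 0.0496, which held in 2 of 12 fits with 1 library left out, those that dropped YAP KD replicate 3 or YAP OE replicate 1. In the 10 others the adjusted p lay between 0.0596 and 0.121. The Pcna call was also lost under other scalings and filters, at adjusted p = 0.0523 with relative log expression factors, 0.0608 with upper-quartile factors, 0.0605 without a low-count filter and 0.0887 with the effective length offset.

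**Figure D4:**
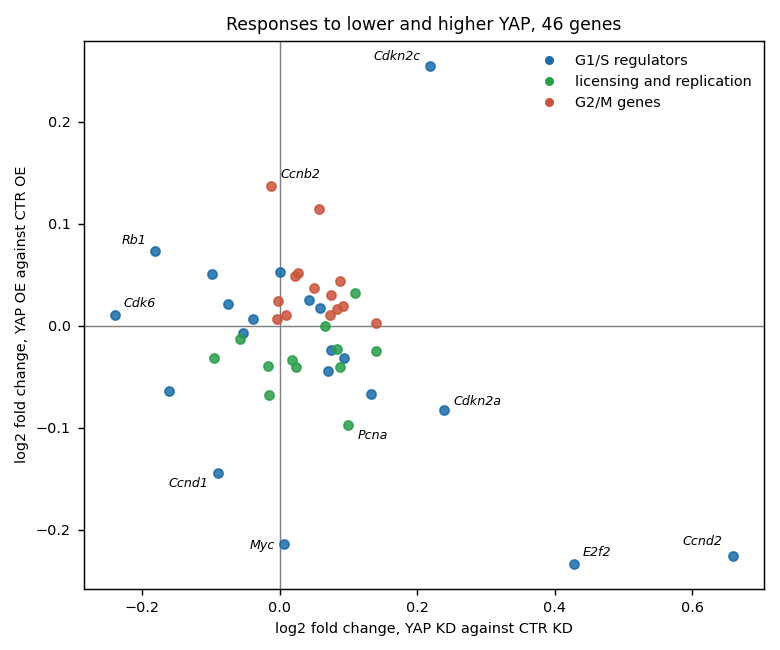
Log2 fold change in YAP KD (horizontal axis) and in YAP OE (vertical axis) for the 46 genes, 1 point each, coloured by phase. Ccnd2 (0.66 and -0.23) and E2f2 (0.43 and -0.23) lie apart at the lower right, and all G2/M points lie above the horizontal line at 0.

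A longer list of 110 other cell cycle and replication genes gave a setting for the 46. Of the 109 that were tested, 4 rose in YAP KD and none fell by edgeR, with 19 at an unadjusted p under 0.05 and a median log2 fold change of 0.04. These 4 of 109 were no larger a share than the 5.49% called over all genes. The 2 called G1/S regulators were Tfdp1, the partner through which E2F factors bind DNA, and Cdkn1c, the inhibitor p57. Tfdp1 was at 116, 111 and 111 CPM in CTR KD and 141, 140 and 135 CPM in YAP KD, well apart (0.30, SE 0.0396, edgeR adjusted p = 0.003). Cdkn1c was at 12.6, 13.8 and 13.6 CPM against 17.1, 16.9 and 19.5 CPM, also apart (0.43, SE 0.0698, edgeR adjusted p = 0.00831). In CTR OE Tfdp1 was at 140.8, 134.9 and 130.6 CPM, and in YAP OE at 135.3, 129.5 and 134.1 CPM. Cdkn1c was at 17, 17.7 and 15 CPM in CTR OE and at 18.3, 18.2 and 18.1 CPM in YAP OE. For both genes the CTR KD libraries were thus the lowest of the 4 groups, and the reason was not tested.

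The 2 called mitotic genes were Pttg1 and Fbxo5. Pttg1, the securin that restrains separase, rose by 0.24 on the log2 scale (SE 0.0515, edgeR adjusted p = 0.0247), and Fbxo5, the inhibitor Emi1 of the anaphase-promoting complex, rose by 0.20 (SE 0.0435, edgeR adjusted p = 0.0312). Expected counts of Fbxo5 were not whole in any of the 12 libraries. Without CTR KD replicate 3, YAP KD replicate 1, YAP KD replicate 2 or YAP KD replicate 3 the number of calls on this list was 2, and without CTR KD replicate 2 it was 6. None of its 46 replication fork genes was called, 35 of them being above 0 with a median of 0.043 and a lowest edgeR adjusted p of 0.111. Its 24 G1/S regulators were 11 above and 13 below 0, with a median of -0.020. The 39 mitotic genes tested were 32 above and 7 below 0, with a median of 0.053.

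In YAP OE none of the 109 genes was called by edgeR (2.13% of all genes were), 6 had an unadjusted p under 0.05, and the median was -0.0044. By the test of the difference 3 of the 109 passed, a smaller share than the 8.80% of all genes. Tfdp1 (0.33, SE 0.0541, edgeR adjusted p = 0.00136) and Fbxo5 (0.24, SE 0.0551, adjusted p = 0.0118) responded differently in the 2 experiments. So did E2f6, a repressive E2F factor named after its values were seen, at 21.2, 22.9 and 21.6 CPM in CTR KD against 19.9, 20.0 and 19.5 CPM in YAP KD, and at 19.8, 21.0 and 21.5 against 23.2, 23.0 and 22.3 CPM in the OE groups. Its groups were apart in both experiments, in opposite directions (difference -0.28, SE 0.0652, edgeR adjusted p = 0.0124).

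The tables also give the abundance-weighted mean transcript length of each gene, which moves when the balance of its isoforms does. Of the 46 genes, 16 varied enough to be tested with limma on log2 length. In YAP KD 1 of the 16 passed (0.127% of 3146 genes did), Cdc25b, a phosphatase that activates Cdk1 at the onset of mitosis. Its transcripts averaged 3050 ± 0.758 bases in the controls and 3039 ± 0.733 bases after knockdown, a difference of -10.2 bases or -0.336% (limma adjusted p = 0.0339). The call was lost without any 1 of the 6 libraries, at adjusted p between 0.112 and 0.311. In YAP OE none passed by limma (0.0315% of 3178 genes did, and none of the 16 had an unadjusted p under 0.05).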

How the data were processed

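Total RNA of 12 ESC libraries (4 groups of 3) was sequenced on an Illumina platform. The authors aligned reads to mm10 (GRCm38) with STAR and counted them per RefSeq gene with RSEM; versions and a strand setting are not given in the sources used here. The deposited expected counts are not normalized and need not be whole, because RSEM divides reads shared by several genes. The deposited TPM values are expected counts per effective length on a fixed total per library. Transcript lengths are those RSEM wrote per gene.

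Expected counts were rounded and fitted with edgeR 4.0.16 in R 4.3.3, each experiment on its own 6 libraries, with filterByExpr, TMM factors and the two-sided quasi-likelihood F test. P-values were Benjamini-Hochberg adjusted over all genes tested, with 0.05 as the threshold. CPM are TMM-normalized, the SE of a log2 fold change is its size over the square root of F, and intervals cover 95%. The interaction was fitted over 12 libraries. DESeq2 1.42.0 and limma 3.58.1 served as alternatives, and limma tested log2 mean transcript length for genes at 1 TPM or more. The fits were run on simulated counts with independent libraries and the same spread for every gene, a simpler setting than these data. The p-values measure the spread between 3 libraries per group, labelled independent experiments, and no replicates were duplicates within sampling noise (chi-square over its degrees of freedom 3.39 to 24.2). Small RNA entries (1327) took 8.67% to 11.2% of the counts.

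The 46 genes, the list of 110 and the marker lists were chosen with earlier results of these data known. By rule any member could be named, with full statistics for those called in either experiment; members just short of the threshold were added after their values were seen. Of the 110, those called in either experiment were named, at most the 8 with the largest change, and E2f6 was added for its interaction. Coordinates and promoter windows are from RefSeq tables of GRCm38.p6, whose start sites gave 250 upstream bases. FPKM values were not used.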

Additional observations from a re-analysis of the deposited data

Results flagged for a closer look

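For 8 genes (5 of the 46 and 3 of the 109 on the longer list, against 8.80% of all genes tested) the response to less YAP differed from the response to more YAP by edgeR's test of the difference itself (log2 scale, YAP KD response minus YAP OE response). It was positive for Ccnd2 (0.88), E2f2 (0.66), Tfdp1 (0.33), Fbxo5 (0.24) and Pcna (0.20), and negative for E2f6 (-0.28), Rb1 (-0.26) and Cdk6 (-0.25). Pcna stood closest to the threshold, with an adjusted p of 0.0496.

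In the transcript lengths, which the expression comparisons do not use, Cdc25b had a mean length in YAP KD that differed from CTR KD by -10.2 bases (limma adjusted p = 0.0339), against 2.71 bases in YAP OE relative to CTR OE (limma adjusted p = 0.95). The level of Cdc25b had a log2 fold change of 0.06 in YAP KD (SE 0.0589).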

How the results depend on the processing

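Of 2667 values for single genes under other settings, 2616 stayed on the same side of the threshold in the same direction, 37 dropped out of it, 14 moved into it and none changed sign while called, whereas 112 changed sign without being called in either. The 4 member calls in YAP KD were 1 (Ccnd2) with a replicate block and 2 to 4 with 1 library left out. Ccnd2 was called under all 12 alternatives, and E2f2 and Cdk6 under 11 of 12, both being lost with the block (adjusted p = 0.0604 and 0.0654). Rb1 was lost under 5 of them (no low-count filter, DESeq2, limma-voom, effective length offset and block, the last at 0.174). The pathway count of 4 was 7 in the fit over all 12 libraries, 2 with the replicate block and 2 to 6 with 1 library left out. In YAP OE the count of 0 members was 2 without a low-count filter (Ccnd1 and E2f2), 1 with DESeq2, 1 with edgeR's exact test and 0 to 1 with 1 library left out. The 5 differences between experiments ranged from 3 to 5 with 1 library left out and from 4 to 6 under the other settings, where Pcna was lost in 5 of 10 (with the replicate block at 0.121), Cdk6 with total counts (0.0592), and Ccnb2 was gained with upper-quartile factors or total counts and Rrm1 with DESeq2, limma-voom or a 1 CPM minimum. The exact test and the 12-library fit were not run for the difference, the first because it has no interaction term and the second because it is that fit. The single length call was 0 at a minimum of 5 TPM, where Cdc25b was not tested, 0 with the replicate block and 0 to 0 with 1 library left out. The cause of these shifts was not tested beyond the fewer samples or genes that the settings themselves impose.

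Whether replicate numbers pair the libraries was not settled, because deviations from a mean of 3 libraries are not independent of each other. Over genes, deviations of same-numbered libraries from their group means correlated at -0.358, -0.233 and 0.017 in the KD groups and at 0.0365, 0.0622 and -0.0171 in the OE groups. Pairs with different numbers in the KD groups ranged from -0.164 to 0.366, the highest being CTR KD replicate 2 with YAP KD replicate 1. In the OE groups such pairs ranged from -0.0919 to 0.0576, so the same-numbered value of 0.0622 was the highest there. With the block the calls over all genes went from 802 to 193 in YAP KD and from 316 to 280 in YAP OE. With 3 libraries a group, SEs of the members had a median of 0.0449 in YAP KD. The smallest change called among them was -0.18 on the log2 scale (Rb1, SE 0.0454), just inside the threshold. Rrm1 at 0.14 (SE 0.0367) was not called, so changes of that size or less were not detectable for most members.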

Other observations

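In CTR KD replicate 2 the members stood farthest from the other libraries of their group. Their median deviation was 0.071 on the log2 scale against 0.0439 in replicate 1 and 0.0391 in replicate 3. This was not particular to the members. Over all genes tested the medians were 0.0985 in replicate 2, 0.0812 in replicate 1 and 0.0664 in replicate 3. For genes at 10 CPM or more they were 0.0839, 0.0621 and 0.0513 in that order. Cdt1, a licensing factor, was at 173, 223 and 184 CPM in the CTR KD libraries, Plk1, a mitotic kinase, at 80.3, 99.3 and 88.9 CPM, and Bub1, a kinase of the spindle checkpoint, at 221, 181 and 211 CPM. Across the 46 genes, which share libraries and are not independent, a library's deviation was correlated with the log2 of mean transcript length. The correlation was -0.40 in CTR KD replicate 2, 0.40 in CTR KD replicate 1, -0.37 in YAP KD replicate 1, 0.36 in YAP KD replicate 2 and -0.41 in YAP OE replicate 3. It lay between -0.11 and 0.22 in the others. Over all genes at 10 CPM or more the values in those named libraries were -0.126, 0.106, -0.192, 0.276 and -0.550 in that order. They were 0.337 in YAP OE replicate 1 and 0.241 in YAP OE replicate 2, and between -0.0861 and 0.199 in the remaining libraries. The part of length in the results was not tested beyond the effective length offset.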
